A study of Mus musculus with 23 samples.

Results

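6 of 23 murine pancreatic ductal adenocarcinoma cell lines were compared here, all with little Cdh1 signal and divided by the signal of the keratin gene Krt18. The members were chosen by array values: Cdh1, which encodes the adhesion protein E-cadherin, had to be below 8 on the log2 signal scale, and Krt18 had to be either below 8 or above 11. The 3 lines with low Krt18 were ASC-5193, ASC-53909 and PPT-17728, called Krt18-low here, and the 3 lines with high Krt18 were PPT-3250, PPT-5320 and PPT-16992, called Krt18-high. The remaining 17 lines had high Cdh1. They served as a reference range and, in an alternative fit over all 23 arrays, in the estimate of the spread. Each line was measured once, untreated and at low passage, on an Affymetrix mouse genome array, and the 6 lines came from 6 different mice.

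All 6 mice carried a Cre recombinase that is expressed in the pancreatic lineage. The Cre was Ptf1aCre/+ in 5 of them and Pdx1-Cre in the mouse of PPT-3250. ASC-5193 came from the only mouse of the 6 with a listed mutant p53 allele, LSL-p53R172H/+. The other lines carried reporter alleles: LSL-R26Tva-lacZ/+ in ASC-53909, PPT-17728 and PPT-16992, LSL-R26Tva-lacZ/+ with LSL-PCNAATG-fLuc/+ in PPT-3250, and LSL-PCNAIRES-fLuc/+ in PPT-5320. The prefix PPT was taken as primary tumour and ASC as a site outside it, so the Krt18-high lines were all primary and the Krt18-low lines had 2 of the other kind. Site and group therefore cannot be fully told apart, and a p-value measures only the spread between single arrays of different lines.

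Keratins are the intermediate filament proteins of epithelial cells, and they assemble only as pairs of a type I and a type II chain. KRT18 and KRT8 are such a pair and form the first filaments of simple epithelia, including pancreatic ducts and acini, where KRT19 and KRT7 are also typical of ducts. Epithelial-mesenchymal transition is the shift of such cells towards a fibroblast-like state, in which E-cadherin is commonly lost, vimentin filaments prevail and matrix proteins are made. Cdh1-low lines can still make keratins, and the 2 groups compared here differ in that respect.

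In mouse genome build GRCm38.p6, Krt18 and Krt8 lie on chromosome 15, in opposite directions and with annotated start sites 23.9 kb apart. Their promoter windows, from 250 bases before to 50 bases after the RefSeq start site, are shown because the pair separates in 1 of the lines below. The windows are chr15:102027966-102028265 on the plus strand for Krt18 and chr15:102004293-102004592 on the minus strand for Krt8. Col6a1 and Col6a2, neighbours on chromosome 10 with start sites 102.4 kb apart, have the 2 largest mean differences among the collagen genes whose groups did not overlap, and their windows are chr10:76725995-76726294 and chr10:76623581-76623880, both on the minus strand. Capitals mark every match to the E-box CACCTG or to the AP-1 motif TGANTCA, searched on both strands.
Krt18: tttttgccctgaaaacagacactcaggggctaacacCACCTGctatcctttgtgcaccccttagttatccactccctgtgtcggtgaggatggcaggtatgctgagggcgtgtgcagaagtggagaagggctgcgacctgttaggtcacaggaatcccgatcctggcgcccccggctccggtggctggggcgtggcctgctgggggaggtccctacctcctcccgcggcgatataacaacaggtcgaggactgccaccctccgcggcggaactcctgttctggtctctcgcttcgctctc
Krt8: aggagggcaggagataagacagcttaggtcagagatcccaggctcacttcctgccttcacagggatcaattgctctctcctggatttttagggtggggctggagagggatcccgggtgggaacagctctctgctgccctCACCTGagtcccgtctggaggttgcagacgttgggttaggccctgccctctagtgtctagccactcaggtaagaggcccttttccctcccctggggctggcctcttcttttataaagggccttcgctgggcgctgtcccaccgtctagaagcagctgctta
Col6a1: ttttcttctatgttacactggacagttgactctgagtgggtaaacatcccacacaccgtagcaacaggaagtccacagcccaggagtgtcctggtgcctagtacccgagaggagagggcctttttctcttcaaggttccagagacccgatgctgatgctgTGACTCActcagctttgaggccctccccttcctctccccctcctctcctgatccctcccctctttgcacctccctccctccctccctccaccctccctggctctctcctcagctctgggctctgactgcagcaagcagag
Col6a2: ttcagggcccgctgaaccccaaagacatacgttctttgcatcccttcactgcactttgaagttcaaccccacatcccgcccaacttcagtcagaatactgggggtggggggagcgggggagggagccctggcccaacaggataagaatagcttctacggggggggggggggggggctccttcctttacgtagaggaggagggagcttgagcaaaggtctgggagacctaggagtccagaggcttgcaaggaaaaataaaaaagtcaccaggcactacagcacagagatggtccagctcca
Each of the Krt18 and Krt8 windows held 1 E-box match, starting at positions -214 and -111 relative to the start site. Among all 32851 windows of the same length in the table, 20.2% held that E-box and 7.8% the AP-1 motif. The Col6a1 window held 1 AP-1 match, and the Col6a2 window held neither motif. The matches describe the letters of these windows only.

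The keratin signals went against a simple keratin-negative label. Krt18 was 2.46 in ASC-5193, 6.01 in ASC-53909 and 7.43 in PPT-17728, against 12.47 in PPT-3250, 12.02 in PPT-5320 and 12.80 in PPT-16992. Since Krt18 set the groups, its difference of -7.13 is a description without a test. The value just inside the lower limit was 7.43 and the nearest value above it was 12.02. For Cdh1, the 6 lines lay between 2.22 and 6.48, and the nearest of the 17 other lines stood at 10.23. Cdh1 averaged 4.68 ± 1.87 (SD, n = 3) in the Krt18-low and 3.89 ± 1.84 (SD, n = 3) in the Krt18-high lines.

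Krt8, the partner of Krt18, was 3.44 in ASC-5193, 12.15 in ASC-53909 and 7.53 in PPT-17728, and 12.56, 12.15 and 12.81 in PPT-3250, PPT-5320 and PPT-16992. ASC-53909 was thus level with PPT-5320 for Krt8, although its Krt18 lay far below the 12.36 to 13.74 of the 17 Cdh1-high lines. All 3 Krt8 probe sets gave the same picture, with group differences of -4.80, -5.02 and -4.58, which are likewise descriptions. In PPT-17728 both partners were at an intermediate level, and in ASC-5193 both were near the bottom of the scale. PPT-5193, a line from the same mouse as ASC-5193, had 13.18 for Krt18, 13.23 for Krt8 and 11.50 for Cdh1.

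The ductal keratin Krt19 separated ASC-5193 alone. It was 2.87 in that line, 9.83 in ASC-53909 and 8.32 in PPT-17728, against 6.89 in PPT-3250, 8.29 in PPT-5320 and a value between them in PPT-16992. The groups overlapped, with a difference of -0.72 (SE 1.69) that was 1.35 without ASC-5193. All 6 values were below the range of the 17 Cdh1-high lines, 10.29 to 13.18. Krt7, another ductal keratin, was highest in PPT-5320 at 6.63 and in PPT-17728 at 5.18, whereas the other 4 lines had 2.09 to 3.03 and the median of the Cdh1-high lines was 12.22. Krt20, a keratin of intestinal-type epithelium, was highest in PPT-3250 at 9.81, with 5.86 in ASC-5193, and Krt13, of stratified epithelia, was highest in ASC-53909 at 7.93. Krt80 overlapped between the groups and was highest in ASC-53909 at 8.94. Krt10 and Krt42 were alike in the 6 lines, at 7.05 to 8.04 and 6.74 to 7.12. The Krt18-low lines thus differed among themselves. Krt8 and Krt19 were both low in ASC-5193, whereas ASC-53909 had high Krt8 and Krt19 beside low Krt18.

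A few genes of mesenchymal cells set both groups apart from the 17 Cdh1-high lines, but of the 17 listed mesenchymal markers S100a4 alone did so. Prrx1, a homeobox gene of mesenchymal cells, was 9.23 to 10.79 in the 6 lines and 1.91 to 8.55 in the 17 others, without overlap. The same held for S100a4, a calcium-binding protein of motile cells, at 13.01 to 13.62 against 7.97 to 12.94. Vim, which encodes vimentin, was high throughout, at 12.92 to 13.65 in the 6 lines and 11.34 to 13.28 in the others. Cdh2 and Sparc, among others, also overlapped with the Cdh1-high lines. Nt5e was 2.63 to 7.01 in the 6 lines, against a median of 8.48 in the Cdh1-high lines. Markers of leukocytes and endothelium were mixed in level. Of 12 leukocyte markers, 5 or 6 exceeded the array median in each line, with mean signals of 3.62 to 4.23 in the Krt18-low and 3.49 to 3.83 in the Krt18-high lines. Ptprc, the pan-leukocyte gene, stayed at 1.81 to 2.27 in the 6 lines, whereas Cd14, a co-receptor for bacterial lipopolysaccharide, was 6.19 to 7.87, below the 9.10 to 10.91 of the Cdh1-high lines. Cd68, a lysosomal protein of macrophages, was 3.93 to 5.74, and Lyz2, their lysozyme, reached 8.54 in PPT-17728. Of 8 endothelial markers, 1 exceeded the median in every line, and Pecam1 was 1.80 to 2.14. The 10 fibroblast or stellate markers averaged 5.75 to 7.60 in the Krt18-low and 4.74 to 6.78 in the Krt18-high lines, and their part in the matrix results below was not tested.

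ASC-5193 stood apart from the other 5 lines. In that line, 286 probe sets lay more than 2 log2 units above all other 5 lines and 174 lay more than 2 below them. The same sum was 163 in ASC-53909 and 37 to 69 in the other 4. After centring each probe set on the 23 arrays, the 3 Krt18-low lines correlated with each other at r = 0.286, 0.289 and 0.451, the Krt18-high lines at 0.480 to 0.521, and lines across the groups at 0.294 to 0.569. These correlations run across probe sets, which are not independent, and are given as a description. The Krt18-low lines resembled each other no more than they resembled the Krt18-high lines.

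No gene passed the test between the groups. The limma test on the 6 arrays called 0 of 45037 probe sets (0%) at an adjusted p of 0.05, and the smallest adjusted p outside the genes of the rule was 0.247. At an unadjusted p of 0.05 it passed 1554 probe sets, 856 of them higher and 698 lower in the Krt18-low lines, which is 3.45% of those tested. With no difference anywhere, 5% of the tests, or 2252 probe sets, would be expected to pass. The median difference over all genes was -0.01, and 96.8% of probe sets differed by less than 1. With 1 brightest probe set per gene, the 3 values of a group lay entirely below those of the other for 4.14% of 18190 genes in the direction lower in Krt18-low lines and for 4.10% in the direction higher. Requiring a difference of over 1 as well left 118 genes lower (0.649%) and 134 higher (0.737%). Counts of separated genes below are to be read against these shares. When the spread was estimated over all 23 arrays, 37 probe sets (0.0822%) passed, 27 lower and 10 higher. Krt18 was among them, but it set the groups, so its passing is no result. Without the genes of the rule, 36 passed, 26 of them lower. The Cdh1-high lines entered the spread of that fit. Some of the 23 lines came from the same mouse, and the fit treated them as independent. Without ASC-53909, 3 probe sets passed on the remaining 5 arrays (adjusted p = 0.0389 each). Foxf1, a forkhead factor of mesenchyme, was 7.25 in ASC-5193 and 7.03 in PPT-17728, against 2.95 in ASC-53909 and 2.59 to 2.94 in the Krt18-high lines. Arrdc4, an arrestin-domain gene, was 6.49 and 6.50 in the same lines and 3.53 in ASC-53909, and the remaining probe set, which was lower, had no gene name. On the 6 arrays, the other probe sets of Foxf1 and Arrdc4 gave differences of 0.39 and 1.71, against 2.99 and 2.25 for these.

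The 15 genes with the smallest p in each direction are described by their values, since none passed. In 8 of the 15 lower and 6 of the 15 higher genes, the smaller group mean was under the median of all values of the 6 arrays, 3.7. The size of those differences therefore rests in part on dim signals. On the lower side the gene with the smallest p was 3110039M20Rik, a transcript of unknown role, at 2.20, 3.30 and 3.97 in ASC-5193, ASC-53909 and PPT-17728 and 9.31, 9.25 and 10.11 in PPT-3250, PPT-5320 and PPT-16992. Its difference was -6.40 (SE 0.48, adjusted p = 0.247). The Krt18-high lines were above all 17 Cdh1-high lines, whose highest value was 8.80. Gulp1, an adaptor for the uptake of dying cells, was 5.93, 6.05 and 6.13 against 8.54, 8.43 and 9.18, and there too the Krt18-high lines were above every Cdh1-high line. Atg9b, an autophagy membrane protein, was 3.50, 3.05 and 3.44 against 6.74, 5.81 and 6.54, a difference of -3.03 that its other probe set, at -0.08, did not show. Sigirr, a negative regulator of interleukin-1 receptor signalling, was 5.92, 6.25 and 6.59 against 8.50, 8.27 and 8.61, and the median of the Cdh1-high lines, 8.82, was next to the Krt18-high values.

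Among the lower genes, Mtm1, the phosphoinositide phosphatase myotubularin, had 3.22, 4.43 and 4.16 against 6.85, 7.54 and 6.73. Its other probe sets gave -4.09 and 0.92, the latter in the opposite direction. Add2, which encodes beta-adducin of the spectrin skeleton, was 2.59, 2.59 and 3.23 against 5.40, 6.26 and 7.06. The other Add2 probe sets gave -3.68, -1.04, -0.69 and -0.46. Lipo3, a lipase gene, was 1.31, 1.34 and 1.32 against 5.14, 7.45 and 5.26. Differences of smaller size were those of Dusp18 (-1.34), Zfp52 (-1.88), Galnt1 (-1.16), D5Ertd615e (-1.04) and Galm (-1.33), the last with another probe set at 0.12. In 8 of the 15 lower genes the median of the 17 Cdh1-high lines was nearer to the Krt18-low mean, so that the Krt18-high lines were the ones further from the rest, and in 7 it was nearer to the Krt18-high mean.

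Nptx1, Pcdh20, Cyp11a1 and Fdx1 stood higher in all 3 Krt18-high lines than in any Krt18-low or Cdh1-high line. Nptx1, a neuronal pentraxin, was 3.44, 4.61 and 3.63 in the Krt18-low lines and 6.63, 7.04 and 7.69 in the Krt18-high lines, with 2.50 to 5.46 in the Cdh1-high lines. Pcdh20, a protocadherin, was 2.74, 2.71 and 2.23 against 6.65, 5.69 and 4.74, with 1.62 to 2.43 in the others. Cyp11a1, the enzyme that starts steroid hormone synthesis by cutting the cholesterol side chain, was 2.25, 2.49 and 2.86 against 6.12, 4.34 and 6.09. Fdx1, whose product ferredoxin passes electrons to that enzyme, was 9.12, 9.57 and 9.33 against 10.24, 10.15 and 10.44. The Cdh1-high lines had 2.20 to 4.25 for Cyp11a1, just under the 4.34 of PPT-5320, and 9.19 to 9.90 for Fdx1. These 4 genes did not pass on 6 arrays (adjusted p = 0.38 to 0.998) and passed with the spread over all 23, at adjusted p = 0.00426, 7.19e-06, 0.00196 and 0.027. That spread includes the Cdh1-high lines, where Pcdh20 was near the bottom of the scale. The SE of Pcdh20 was 0.29 in that fit and 0.47 on 6 arrays. These p-values therefore do not measure the spread among Cdh1-low lines alone. Cyp11a1 had 2 other probe sets, which gave -0.13 and -0.10.

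Rasgrf1, Nalcn and Sh2d5 also passed only with all 23 arrays, and in all 3 Krt18-high lines they were above every Cdh1-high line. Rasgrf1, a calcium-regulated activator of Ras, was 1.99, 2.36 and 3.26 against 7.71, 7.12 and 3.80 in its probe set with the largest difference, and all 3 of its probe sets passed. Nalcn, a sodium leak channel of neurons, was 2.32, 1.88 and 1.93 against 6.53, 3.78 and 6.11. Sh2d5, an adaptor gene, was 4.22, 2.28 and 2.69 against 8.30, 5.86 and 8.51. For these 3 genes the 17 Cdh1-high lines reached at most 2.87, 2.98 and 5.73. Clu, which encodes the secreted chaperone clusterin, passed as well without that order. It was 7.80, 3.48 and 7.58 in the Krt18-low lines against 12.98, 9.36 and 10.63 in the Krt18-high lines and 12.03 to 13.68 in the Cdh1-high lines. PPT-5320 and PPT-16992 were thus also below the Cdh1-high lines. All 4 Clu probe sets passed with 23 arrays. Man1a, a mannosidase that trims glycans, was 3.97, 6.45 and 6.37 against 8.92, 7.88 and 8.72, and PPT-5320 was just under the highest Cdh1-high value of 7.95.

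The 10 probe sets called higher with all 23 arrays belonged to S100b, Tshz3, Hivep3, Arhgap28, Rarres1, Aopep, Lhx2, Ldb3, Radil and Vdr. Other probe sets gave -0.30 to 0.16 for Hivep3, 0.25 and 0.49 for Arhgap28, 0.02 and 0.80 for Ldb3 and 0.10 to 1.49 for Aopep. Those of S100b and Vdr gave 3.65 and 1.26. Tshz3, a zinc finger transcription factor, was 6.84, 7.24 and 5.75 in the Krt18-low and 1.42, 4.89 and 2.29 in the Krt18-high lines. Lhx2, a LIM homeobox factor, was 4.77, 2.98 and 3.52 against 1.56, 1.66 and 1.60, with at most 2.29 in the Cdh1-high lines. Rarres1, a retinoid-responsive gene, overlapped between the groups, since ASC-53909 had 2.87 and PPT-3250 had 3.02. The standard error of a difference was smaller in this fit than on 6 arrays for some genes, as for Clu at 0.79 and 1.39, and larger for others, as for Nptx1 at 0.49 and 0.40.

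On the higher side, Cryab, a small heat shock protein that binds intermediate filaments, was 8.95, 9.58 and 8.98 in ASC-5193, ASC-53909 and PPT-17728 and 6.61, 6.91 and 6.27 in PPT-3250, PPT-5320 and PPT-16992. Its difference was 2.57 (SE 0.25, adjusted p = 0.256), and of its 2 other probe sets 1 gave 2.43 and 1 gave -0.18. Vldlr, a lipoprotein and reelin receptor, was 4.97, 4.57 and 5.23 against 2.75, 2.69 and 2.24, and its 5 other probe sets all differed in the same direction. S100b, a calcium-binding protein of glia and melanocytes, was 8.37, 8.33 and 7.01 against 4.32, 4.88 and 3.56, and its second probe set, with a difference of 5.22, passed with all 23 arrays (adjusted p = 0.0413). Sox10, a transcription factor of the same cells, was 7.38 in ASC-5193 but 4.67 to 4.80 in the other 5 lines.

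The higher genes also included Nid2 and Sod3, which encode secreted proteins, and the homeobox gene Prrx2. Nid2, a basement membrane linker, was 4.62, 5.62 and 5.38 against 3.35, 3.05 and 2.78. Sod3, the extracellular superoxide dismutase, was 5.44, 6.27 and 5.14 against 2.93, 3.05 and 3.25. Prrx2, related to Prrx1, was 9.56, 9.55 and 9.27 against 7.94, 7.64 and 6.78. Pde8a, a phosphodiesterase that degrades cyclic AMP, was 8.86, 8.86 and 7.82 against 4.45, 4.69 and 5.61. The remaining named genes on this side were Cbr3 (2.48), Glipr2 (2.14), Aldh1l2 (2.08), Ankrd29 (1.87), Ccdc134 (1.33), Radil (1.21) and Hnrnpd (1.07), given as log2 differences with the groups not overlapping. Other probe sets gave 0.00 and 0.36 for Hnrnpd, 0.19 for Ccdc134, 0.73 for Sod3, 1.19 for Glipr2, 1.29 for Ankrd29 and 1.91 for Pde8a. In all 15 higher genes the median of the 17 Cdh1-high lines was nearer to the Krt18-high mean. For Vldlr that median, 3.67, was almost midway between the group means of 2.56 and 4.92. The highest Cdh1-high value was above every Krt18-low value for Vldlr (7.30), Sod3 (6.91), Glipr2 (6.06), Cbr3 (8.65) and Hnrnpd (6.80).

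**Figure D1:**
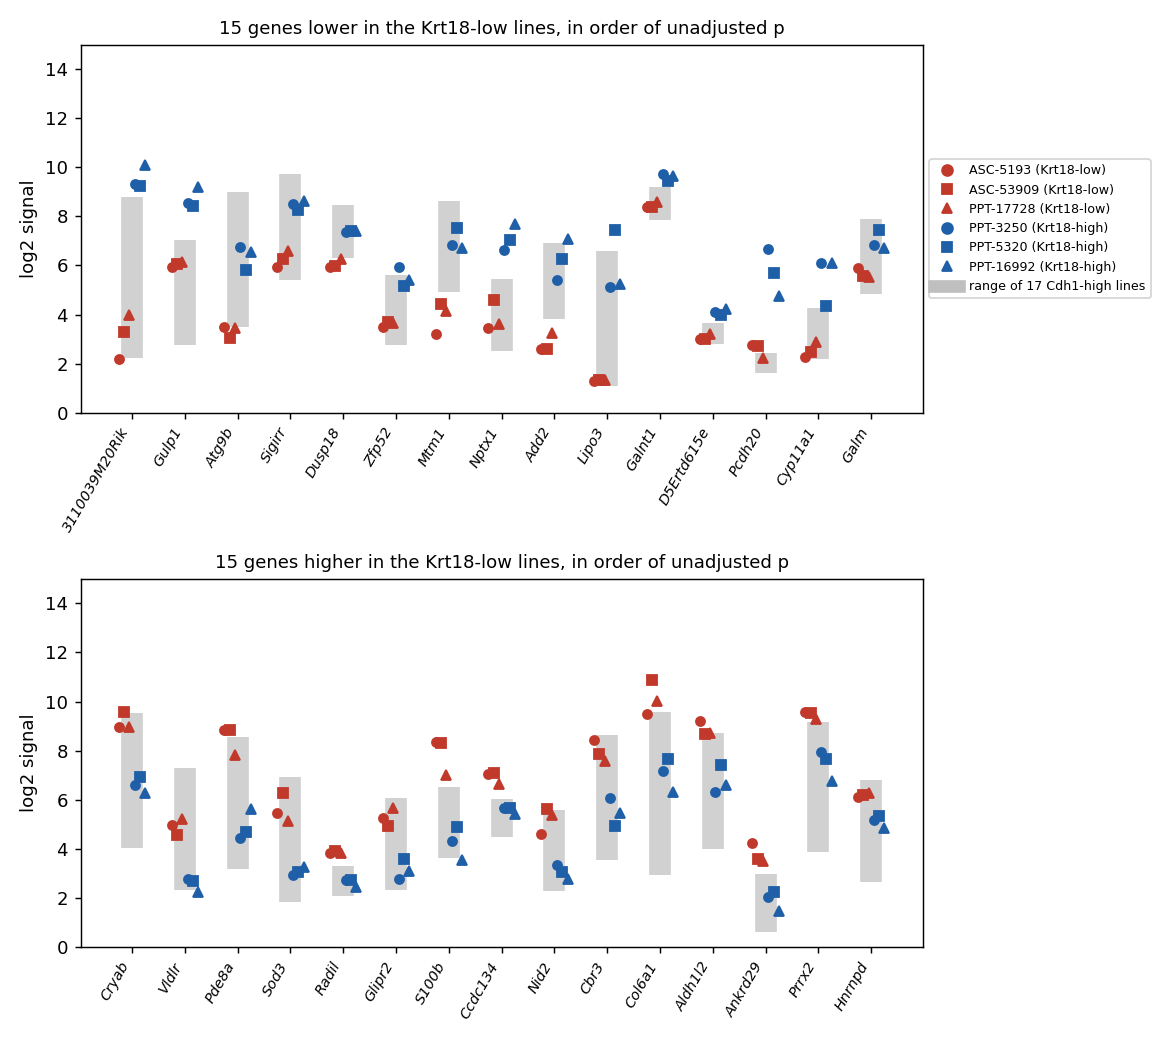
Log2 array signal (vertical axes) of the 15 genes with the smallest p in each direction (horizontal axes) in the 6 Cdh1-low lines, each point 1 array, with grey bars for the range of the 17 Cdh1-high lines. For Pcdh20 and 3110039M20Rik the blue Krt18-high points lie above the grey bar, and for S100b and Col6a1 only the red Krt18-low points come near or above its top.

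Collagen genes showed the highest list median apart from interferon and chemokine genes. Of 19 measured, 13 were higher on average in the Krt18-low lines and 6 lower, with a median difference of 0.77 against -0.01 over all genes, and the groups did not overlap for 3 of them, all higher. Col6a1, a chain of the microfibrillar collagen VI, was 9.49, 10.86 and 10.04 against 7.16, 7.65 and 6.32, a difference of 3.09 (SE 0.46, adjusted p = 0.567). Col6a2, its partner chain, was 8.06, 11.25 and 10.34 against 6.04, 7.54 and 5.24, a difference of 3.61 (SE 0.92). Both chains were higher in every Krt18-low line. Col6a3, which joins both in the classical trimer, was 5.29, 10.66 and 8.25 against 6.55, 6.72 and 2.99, and there ASC-5193 was below 2 of the Krt18-high lines. Col5a1, which regulates fibril size, was 10.30, 9.61 and 9.96 against 7.76, 9.07 and 7.84.

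Col1a1, Col1a2 and Col5a2, chains of fibrillar collagens, were far lower in ASC-5193 than in the other Krt18-low lines. Col1a2, a chain of collagen I, was 4.63 in ASC-5193, 13.27 in ASC-53909 and 11.81 in PPT-17728, and 11.98, 12.98 and 11.71 in the Krt18-high lines. Col1a1 was 3.67, 11.07 and 10.30 against 7.18, 9.68 and 3.15, and Col5a2 was 4.60, 12.30 and 10.99 against 5.73, 9.60 and 10.64. Other fibrillar chains did not have this pattern. Col3a1 was 10.94, 12.80 and 12.65 against 11.38, 12.25 and 10.40, and Col11a1 was highest in ASC-5193 at 6.92. Without ASC-5193 the differences of Col1a1 and Col5a2 were 4.01 and 2.99, from 1.68 and 0.64 with it, and the list median was 0.68. Among other matrix genes, Timp3, an inhibitor of metalloproteinases, was 10.58, 10.93 and 11.42 against 7.96, 9.83 and 10.44, and its 3 other probe sets differed in the same direction. Of 16 proteases and inhibitors, Timp3 alone did not overlap. The list's median of 0.52 was 0.02 with the site as a covariate and 0.13 without ASC-5193, which had high Mmp3 (10.57), Mmp9 (8.12), Mmp10 (9.62) and Mmp13 (7.36). Of 23 laminins and integrins, 2 dim members did not overlap, Itga4 and Lama1, both higher.

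Junction genes ranged from high to near the bottom of the scale in both groups, and a few had lower values in the Krt18-low lines. Plec, the cytoskeletal linker plectin, was 10.63 to 11.54 in the 6 lines, and Tjp1, the tight junction scaffold, was 9.35 to 9.74. Of 17 desmosome and plakin genes, 9 to 13 exceeded the array median in each line. Perp, a desmosome-associated membrane protein and p53 target, was 1.86, 2.10 and 4.13 in ASC-5193, ASC-53909 and PPT-17728 and 5.62, 9.01 and 8.52 in PPT-3250, PPT-5320 and PPT-16992, with 7.87 to 11.32 in the Cdh1-high lines. Its difference of -5.02 (SE 1.01) did not pass on 6 arrays (adjusted p = 0.998) and passed with all 23 (adjusted p = 0.00933). Pkp3, a desmosomal plaque protein, was 4.43, 3.84 and 4.41 against 4.69, 5.11 and 4.73, a separation of small size. Dsp, the desmoplakin gene that anchors keratins to desmosomes, was 1.59 to 3.24 in all 6 lines and 8.24 to 10.54 in the Cdh1-high lines. Of the desmosome and plakin genes, 2 were separated lower and none higher, and the list median was -0.06.

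Among 18 tight junction and adhesion genes, Cldn1 and Cxadr were separated. Cldn1, a claudin, was 2.60, 3.76 and 2.83 against 4.16, 4.34 and 6.12 in its brightest probe set, and the others gave -0.39 to -0.19. In that brightest probe set the Cdh1-high lines had 1.78 to 5.04. Their median of 2.49 was nearer to the Krt18-low mean of 3.06 than to the Krt18-high mean of 4.87. Cxadr, an adhesion molecule of tight junctions, was 6.41, 5.26 and 7.58 against 7.63, 8.20 and 8.47, which brought PPT-17728 within 0.05 of PPT-3250, and its other probe sets gave -1.40 to 0.05. F11r, another such molecule, was 4.21 in ASC-5193 but 7.81 to 8.89 in the other 5 lines. Of 22 epithelial transcription and splicing regulators, Tfap2c alone was separated, lower and dim in every line. Rbm47, an RNA-binding regulator of epithelial splicing, was 2.89, 3.03 and 5.78 against 6.37, 5.27 and 6.48, and Spint2, a protease inhibitor of epithelia, was 3.98, 4.91 and 8.27 against 8.39, 7.36 and 7.95. For both, PPT-17728 lay with the Krt18-high lines, and with the site as a covariate the Spint2 difference turned from -2.18 to 0.37.

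The transcription factors known to induce epithelial-mesenchymal transition did not divide the groups as a whole. Of 14 measured, 7 were higher and 7 lower, and the list means were 6.90 to 7.45 in the Krt18-low and 6.94 to 7.30 in the Krt18-high lines. Snai2, also known as Slug, was the separated member, at 10.76, 9.03 and 9.30 against 8.51, 8.58 and 8.47, a difference of 1.18 (SE 0.44) that was 0.65 without ASC-5193. Zeb1, a repressor of E-cadherin, was 8.83, 9.52 and 9.13 against 8.92, 9.23 and 8.80. Zeb2 was 7.41, 6.26 and 8.61 against 6.07, 7.03 and 5.88. Twist1, in contrast, was 6.85, 8.47 and 7.60 against 8.48, 8.39 and 8.35.

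Genes of the epidermal growth factor receptor system differed on average in opposite directions for the receptor and 2 of its ligands. Egfr, the receptor itself, was 6.34, 7.76 and 7.25 in the Krt18-low lines and 5.05, 6.11 and 3.86 in the Krt18-high lines, a difference of 2.11 (SE 0.62) in its brightest probe set. Its 6 other probe sets gave -0.12 to 1.76. Tgfa, a ligand of that receptor, was 4.33, 3.52 and 4.09 against 4.57, 5.92 and 6.16 in its brightest probe set, whereas its other probe sets gave -0.13 and 0.09. Btc, the ligand betacellulin, was 4.59, 7.24 and 5.61 against 8.30, 7.56 and 7.87. These 3 of 10 measured members were separated, 1 higher and 2 lower, and Erbb2, Erbb3, Nrg1, Hbegf and Ereg overlapped. None passed the test on 6 or on 23 arrays.

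Of 21 genes in a mixed list of AP-1 genes and outputs of ERK, the kinase downstream of Ras, 14 were lower and 7 higher. Etv5, an ERK-induced transcription factor, was 8.20, 8.69 and 7.97 against 8.81, 9.12 and 9.38. Fosb and Egr1, immediate early genes, were likewise separated lower, with differences of -1.50 and -0.62, and Spry1, a feedback inhibitor, was separated higher at 0.90. Dusp6, a phosphatase of ERK, was 10.13, 10.61 and 9.69 against 9.96, 10.54 and 10.59. In the TGF-beta list of 23 genes Smad7, the inhibitory SMAD, was the separated member, at 8.69, 8.73 and 8.75 against 7.76, 8.19 and 8.28.

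**Figure D2:**
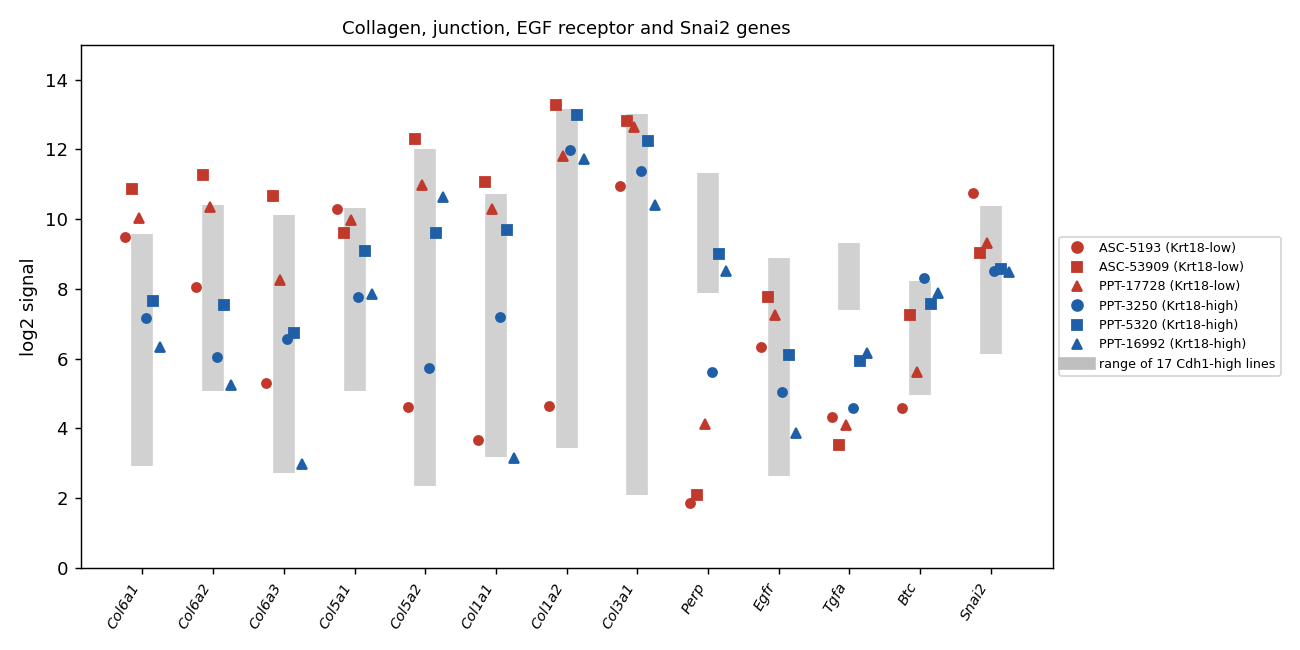
Log2 array signal (vertical axis) of 8 collagen genes, Perp, Egfr, 2 of its ligands and Snai2 (horizontal axis) in the 6 Cdh1-low lines, each point 1 array, with grey bars for the range of the 17 Cdh1-high lines. All red Krt18-low points exceed the blue Krt18-high points for Col6a1, Col6a2, Col5a1, Egfr and Snai2, while for Col1a2 the red circle of ASC-5193 lies at 4.63, far below the rest.

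Interferon response genes had the highest list median and no separated member. Of 17 measured, 16 were higher on average in the Krt18-low lines, with a median difference of 1.18 that was 0.58 without ASC-5193 and 0.18 with the site as a covariate. The list mean was 7.34 in ASC-5193, 5.26 in ASC-53909 and 4.90 in PPT-17728, against 4.17 in PPT-3250, 5.68 in PPT-5320 and 4.08 in PPT-16992. PPT-5193, from the same mouse as ASC-5193, had a list mean of 4.27. Ifit1, an antiviral RNA-binding protein, was 8.55 in ASC-5193, 5.17 in ASC-53909 and 4.24 in PPT-17728, and 3.47, 6.18 and 2.73 in the Krt18-high lines. PPT-5320 was above 2 of the 3 Krt18-low lines for Ifit1, and for the list as a whole.

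Of 19 chemokines and cytokines, 10 were highest in ASC-5193 among the 6 lines. Ccl5, which attracts T cells, was 11.83 in ASC-5193 and 3.49 to 5.51 in the other 5 lines. Cxcl10, an interferon-induced chemokine, was 10.53 there and 3.34 to 4.98 elsewhere, and Ccl2, which attracts monocytes, was 11.64 there and 4.82 to 7.53 elsewhere. Of the 19 genes, 16 were higher on average and 3 were separated higher: Ccl20, Cxcl1 and the dim Il1b. The list median of 0.78 was 0.42 without ASC-5193. Il33 and Cxcl12, among others, were not highest in ASC-5193. Il33, an alarmin of epithelial and stromal cells, was 4.15 in ASC-5193 but 8.92 in ASC-53909 and 8.46 in PPT-17728, against 4.73, 5.55 and 5.58 in the Krt18-high lines. Cxcl12, which attracts lymphocytes and stem cells, was highest in PPT-17728 at 11.34, and Cxcl14 was highest in PPT-5320 at 7.25.

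**Figure D3:**
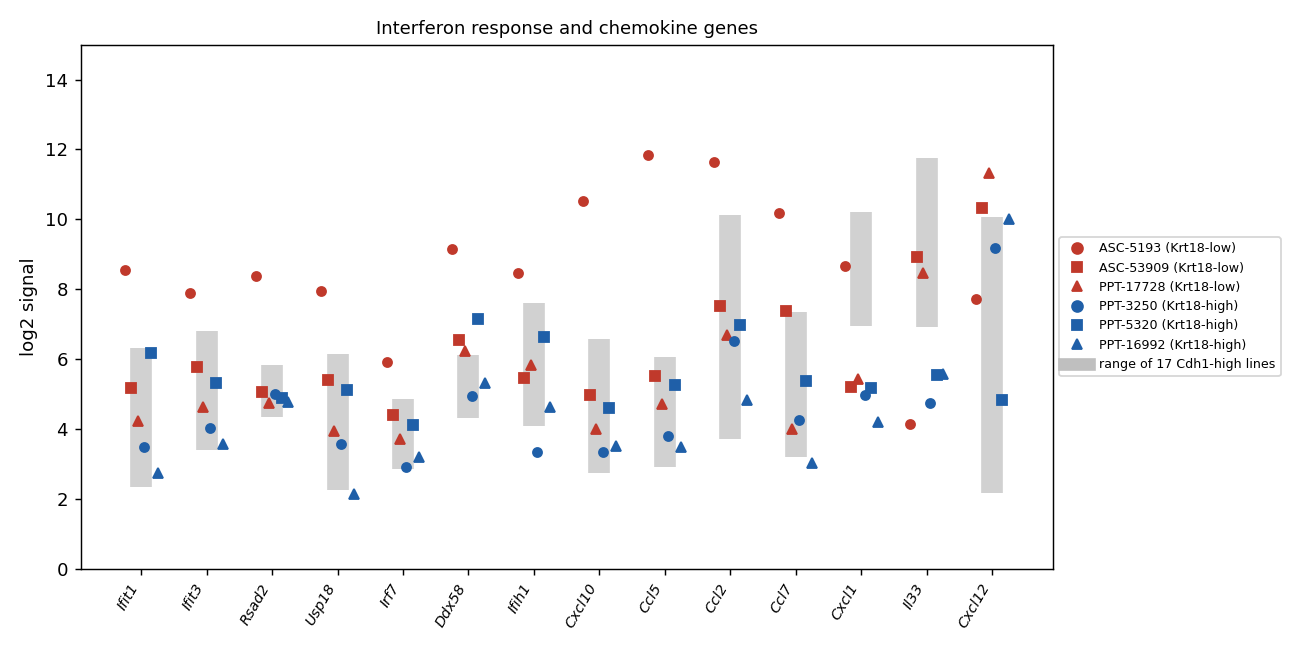
Log2 array signal (vertical axis) of 8 interferon response and 6 chemokine and cytokine genes (horizontal axis) in the 6 Cdh1-low lines, each point 1 array, with grey bars for the range of the 17 Cdh1-high lines. The red circle of ASC-5193 is the highest of the 6 points for the first 12 genes, at 11.83 for Ccl5, and the other red points mix with the blue ones for the interferon genes.

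Of 15 transcription factors of the pancreas and foregut, the dim Onecut1 alone was separated, at 2.75, 2.86 and 2.81 against 3.47, 3.06 and 3.52, while its other probe set gave 0.00. The 18 proliferation genes averaged 9.32 to 10.37 in the Krt18-low and 9.71 to 10.23 in the Krt18-high lines, and none was separated. Pdx1, a transcription factor of the pancreatic lineage, was 2.22 in ASC-5193 and 2.09 in PPT-3250 but 7.97 to 8.72 in the other 4 lines. Foxa2, a foregut factor, was 3.11 in ASC-5193 and 6.05 to 8.47 in the others. Cdkn2a, the locus of the p16 and p19Arf tumour suppressors, was 12.06 in ASC-5193, 6.89 in PPT-16992 and 2.06 to 2.73 in the other 4 lines. Its neighbour Mtap was 3.41, 3.68 and 3.51 in ASC-53909, PPT-17728 and PPT-3250 and 10.77 to 12.38 in the other 3, so that lines of both groups were near the bottom of the scale for both genes.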

How the data were processed

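RNA of 23 murine lines was measured on Affymetrix mouse genome arrays. The deposited values were on a log2 scale, 1 for every probe set of an array. VSN followed by log2 is given in the study's supplementary methods, whereas RMA is listed in the submitters' processing notes, with no version given in the sources used here. Which of these made the values was not settled. Either method puts the arrays on a common scale, so a shift shared by most genes would not be visible. The values were used as deposited. Of 45101 probe sets, 64 controls were left out and 45037 were tested, with no filter on dim signals. Symbols came from the platform annotation, and probe sets with several symbols were not named.

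Groups followed the Cdh1 and Krt18 limits given in the report. Cdh1, Krt18 and Krt8 were fitted with the other probe sets, but their differences are given as descriptions, without p-values. The members, the gene lists and the tests were chosen with earlier results of these data known. The test on the 6 arrays was limma's moderated linear model (version 3.58.1, R 4.3.3), with p-values adjusted by Benjamini-Hochberg across the 45037 probe sets and a limit of 0.05, after the code was tested on simulated data. Named genes were the 15 with the smallest p in each direction, by the probe set with that p, and up to 4 members with the smallest p of each of 29 gene lists (401 of 435 entries measured), by the probe set that was brightest over all lines. Further list members and genes called only with all 23 arrays were named after their values were seen. Alternatives were a fit on all 23 arrays, quantile normalization, median centring, bright probe sets only, trended and robust variances, the site as a covariate and leaving out each line. Promoter sequences came from RefSeq (GRCm38.p6). Tables and figures were made in Python 3.11.15 with pandas 2.3.3 and matplotlib 3.10.9. Part of the genotype of the mice is not reported here. Arrays carry no counts, and their number limits the precision.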

Additional observations from a re-analysis of the deposited data

How the results depend on the processing

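The 6-array test gave 0 calls under every alternative except 2. With all 23 arrays it gave 37 calls, that of Krt18 among them, and without single lines 0 to 3, the 3 being without ASC-53909. The number at an unadjusted p of 0.05 was 1554 on 6 arrays, 2355 with all 23, 875 among bright probe sets only, and 1214 to 2132 without single lines. Of 141 named probe sets, 119 kept their direction under all alternatives, and 6 passed the threshold with all 23 arrays: Nptx1, D5Ertd615e, Pcdh20, Cyp11a1, Radil and Perp. Quantile normalization, median centring and trended and robust variances turned the direction of none of the 141.

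With the site as a covariate, which rests on PPT-17728 as the lone primary Krt18-low line, 17 differences turned sign: Krt7 to 1.16, Tjp3 to -0.07, Spint2 to 0.37, Esrp2 to 0.30, Mmp3 to -0.48, Plat to -0.14, Foxa1 to 0.12, Cdkn2b to -0.06, Cdkn2a to -1.49, Ccl7 to -0.21, S100a8 to -0.11, Tie1 to -0.07, Dcn to -0.92, Msln to 1.32, Muc1 to 0.12, Cftr to -0.41 and Krt19 to 0.59. Leaving out ASC-5193 turned the sign at the first value of the ranges over single left-out lines for Cdkn2b (-0.09 to 3.18), Cdkn2a (-1.57 to 3.34), S100a8 (-0.17 to 2.55), Vwf (-0.00 to 0.32) and Cftr (-0.73 to 1.46), and at the second for S100a16 (-2.74 to 0.04) and Krt19 (-2.13 to 1.35). Leaving out ASC-53909 did so at the first value for Krt80 (-0.26 to 1.59) and Erg (-0.00 to 0.22), and at the second for Msln (-2.21 to 0.73). PPT-3250 gave the second value for Krt20 (-2.53 to 1.14) and Muc1 (-0.82 to 0.05), and PPT-5320 for Krt7 (-1.75 to 0.53). In all 30 cases the groups overlapped and the cause was not tested. The gene list medians without ASC-5193 were chosen after seeing the data. No paired analysis was possible because the replicate numbers of the groups mark different mice.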

Other observations

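Genes of neurofilaments varied by line in both groups, apart from Nefh at 2.54 to 3.16 in all 6 lines. Nefl, the light chain, ranged from 1.83 in PPT-17728 to 8.39 in PPT-3250. Nefm, the medium chain, was 9.93 in ASC-5193, 6.58 in ASC-53909, 6.15 in PPT-3250 and 7.18 in PPT-16992, but 1.79 in PPT-17728 and 2.91 in PPT-5320, and at most 2.31 in the 17 Cdh1-high lines. Of 14 other intermediate filament genes, the dim Ina alone was separated, higher in the Krt18-low lines. Of 17 mesenchymal markers, 2 were separated higher. Nt5e, the ecto-nucleotidase CD73, was 6.32, 5.63 and 7.01 in ASC-5193, ASC-53909 and PPT-17728 and 5.62, 3.07 and 2.63 in PPT-3250, PPT-5320 and PPT-16992, while its other probe sets gave 0.22 and 0.23. Sparc, a collagen-binding protein, was 12.71, 12.41 and 12.27 against 11.93, 12.22 and 12.08. Thy1, a surface protein of fibroblasts, was 9.57 in PPT-3250 and 10.19 in PPT-5320, and 2.99 to 5.71 in the other 4 lines.

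Growth and stress genes varied by line. Igf2, a fetal growth factor, was 3.58 in ASC-5193, 6.71 in ASC-53909 and 6.23 in PPT-17728 and 3.94 to 4.16 in the Krt18-high lines, and none of 12 fetal and imprinted growth genes was separated. Of 15 p53 target genes, Perp was separated lower and Fas, a death receptor, higher, at 3.77, 4.13 and 4.88 against 3.14, 3.52 and 3.17. Of 12 S100 and annexin genes, the dim S100a14 was separated lower, and S100a8 was 7.75 in ASC-5193 and 2.30 to 2.66 in the other 5 lines. Lyz2, a lysozyme of macrophages, was 8.54 in PPT-17728 and 3.36 to 5.68 in the others, while Ptprc was 2.27 there.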
